A study of Homo sapiens with 8 samples.

Results

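The interferon response and antigen presentation genes studied here are 51 genes that are induced by interferons or that build, load and display the MHC molecules of the cell surface. They were taken as a fixed list of symbols, and all probe sets that the platform annotation assigns to a listed symbol were collected. A probe set is a group of array probes that measure the same transcript together. Of the 51 genes, 50 had a probe set, among 19605 genes and 49293 probe sets in all, and no probe set was matched to STAT2. A gene with several probe sets is described by the one whose mean over all 8 arrays was highest. OAS2 and OAS3 are represented by the same probe set, which leaves 49 distinct probe sets, and that of USP18 is annotated to further genes as well. The 145 probe sets annotated to any member were also read. RNA came from DU145, a human prostate cancer cell line, and values are log2 intensities that the authors made with RMA. The 4 Aldrin-exposed arrays are of cells kept for 50 days with 1 µM Aldrin, an organochlorine insecticide, in DMSO, with fresh Aldrin added at each passage. The 4 Non-exposed arrays are of cells whose labelled treatment is none, and the sources used here do not say whether they received DMSO. Both groups are the same cell line, grown in serum-supplemented RPMI, and the sources do not state that replicates were separate cultures. The p-values therefore measure the spread between these samples, which may be technical.

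Interferons are secreted proteins that warn cells of infection. Types I and III act through their receptors and the kinases JAK1 and TYK2 to form a complex that holds STAT2 and IRF9 and binds the interferon-stimulated response element (ISRE) of antiviral genes. Interferon gamma acts in part through IRF1 on chemokines, guanylate-binding proteins and the MHC genes. MHC class I molecules present peptides of the cell's own proteins to CD8 T cells on most cell types, while class II molecules are made mainly by antigen-presenting cells and depend on the transactivator CIITA.

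None of the 49 member probe sets passed the test between Aldrin-exposed and Non-exposed cells. The two-sided test was limma, fitted over all probe sets, with p-values adjusted by Benjamini-Hochberg and a threshold of 0.05, and every member had an adjusted p = 1. Over all probe sets 0.00203% passed. The higher mean lay in exposed cells for 27 members and in Non-exposed cells for 22, and the median log2 fold change (exposed minus Non-exposed) was 0.02, beside 48.2% with the higher mean and a median of -0.0048 over all probe sets. At an unadjusted p under 0.05 there was 1 member, or 2.04%, against 3.07% of all probe sets. That member, IFITM3, was also the 1 member without overlap between the groups (exposed lower, with 0 members the other way). Over all probe sets 1.99% had no overlap, 1.35% with exposed cells lower and 0.643% with exposed cells higher. Log2 fold changes of members ran from -0.28 for OASL to 0.26 for DDX60. The 95% interval of the difference, unadjusted for the number of genes, lay between -1 and 1 for 49 of 49 members, so that for each of them a 2-fold difference in either direction was outside the interval. The same held for 99.1% of all probe sets. For members whose reading is mostly background, such an interval bounds the signal and not the transcript, and which these are was not settled. The interval lay between -0.5 and 0.5, a fold of 1.41 either way, for 36 of 49 members (73.5%), against 80.5% of all probe sets. The widest intervals reached -0.75 for IFI6 and 0.76 for DDX60.

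**Figure D1:**
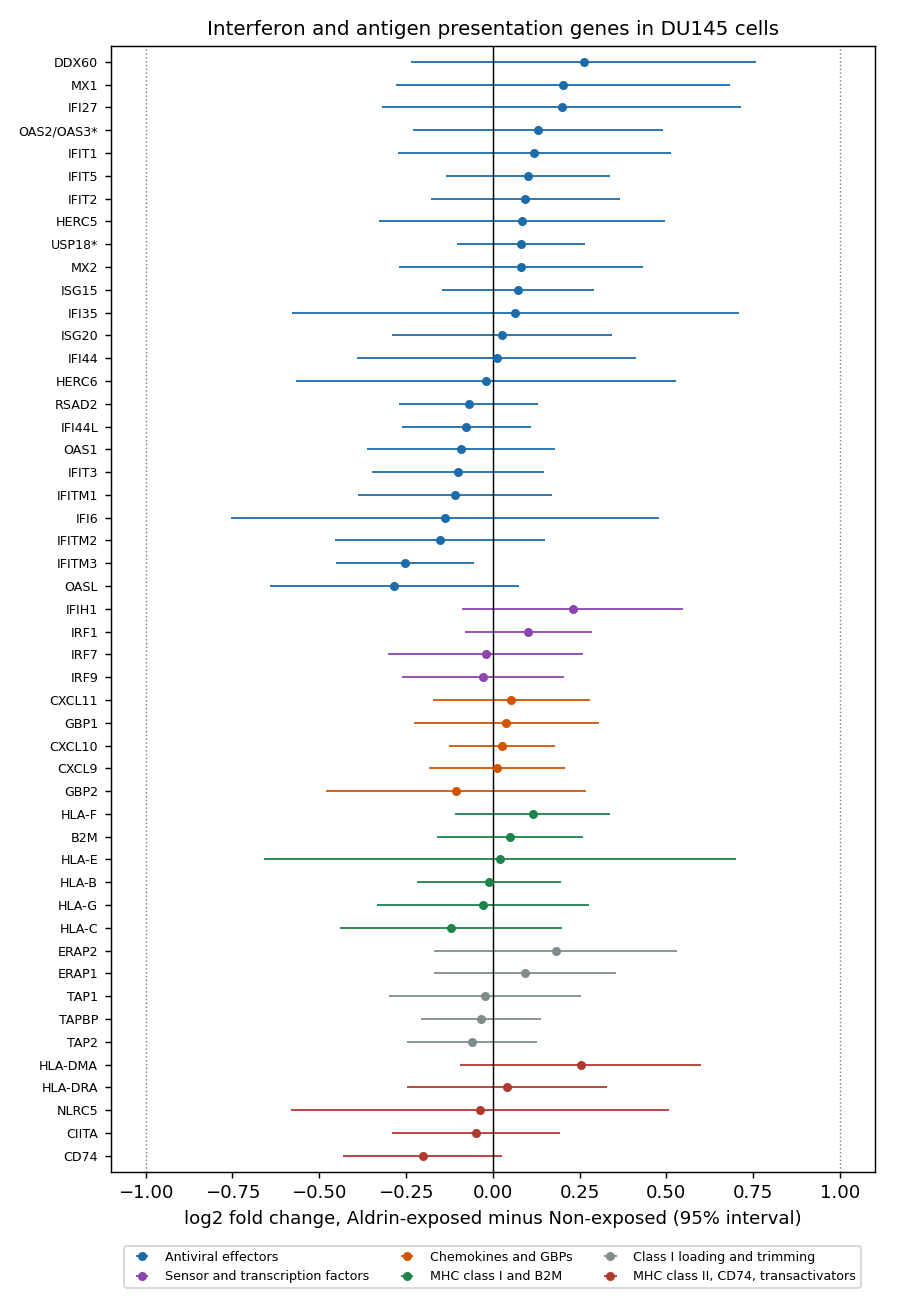
Log2 fold change of each member (horizontal axis, Aldrin-exposed minus Non-exposed, 4 arrays each) with its unadjusted 95% interval from limma, by gene (vertical axis), coloured by role list. Dotted lines mark a 2-fold difference, stars mark probe sets annotated to several genes, and each of the 49 intervals ends inside the dotted lines, from -0.75 to 0.76.

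**Figure D2:**
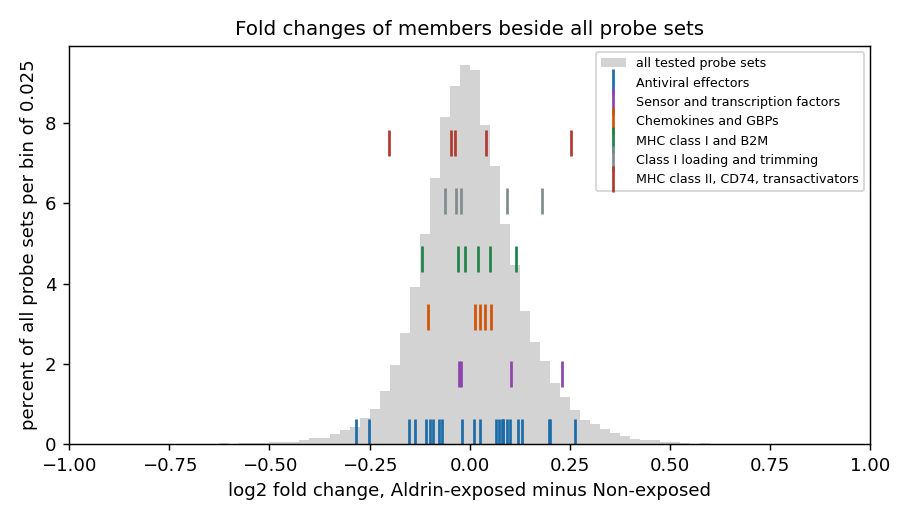
Log2 fold changes of the 49 members (ticks, a row for each role list, whose height carries no value) over the distribution of all 49293 tested probe sets (grey bars, percent of probe sets per bin). Members lie between -0.28 and 0.26, while all probe sets ran from -2.22 to 0.95, of which the axis shows -1 to 1.

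Promoters of interferon-induced genes are known to hold the ISRE close to the start of transcription. RefSeq promoter windows of 300 bases (build GRCh38.p14, 250 bases before the start site and 50 after it) were matched by symbol to 39 of the 51 members. The ISRE core was searched as GAAA, any 2 bases and GAAA on both strands, and overlapping matches were counted separately. It was found in 25 of the 39 member windows (64.1%) and in 996 of 27305 windows of all genes (3.65%). A match is a description of the letters and no measure of binding. Windows are shown for ISG15, whose product is a ubiquitin-like protein, for IFITM3, the member without overlap, for HERC5, the ligase of ISG15, and for B2M, the light chain of MHC class I, 5′ to 3′ along the gene, with ISRE matches in capitals. These windows lie at chr1:1013247-1013546 (plus strand), chr11:320811-321110 (minus strand), chr4:88456869-88457168 (plus strand) and chr15:44711267-44711566 (plus strand), in the order given.
ISG15: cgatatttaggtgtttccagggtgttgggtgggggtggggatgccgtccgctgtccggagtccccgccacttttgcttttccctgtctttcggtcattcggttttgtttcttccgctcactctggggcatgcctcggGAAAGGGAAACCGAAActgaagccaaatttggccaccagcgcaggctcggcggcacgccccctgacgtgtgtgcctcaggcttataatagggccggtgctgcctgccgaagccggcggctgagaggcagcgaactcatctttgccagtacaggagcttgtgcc
IFITM3: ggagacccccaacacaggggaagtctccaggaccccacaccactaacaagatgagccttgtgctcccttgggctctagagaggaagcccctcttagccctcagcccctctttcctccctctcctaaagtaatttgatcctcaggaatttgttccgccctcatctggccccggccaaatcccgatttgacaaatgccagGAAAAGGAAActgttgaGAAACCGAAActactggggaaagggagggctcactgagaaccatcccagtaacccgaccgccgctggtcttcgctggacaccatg
HERC5: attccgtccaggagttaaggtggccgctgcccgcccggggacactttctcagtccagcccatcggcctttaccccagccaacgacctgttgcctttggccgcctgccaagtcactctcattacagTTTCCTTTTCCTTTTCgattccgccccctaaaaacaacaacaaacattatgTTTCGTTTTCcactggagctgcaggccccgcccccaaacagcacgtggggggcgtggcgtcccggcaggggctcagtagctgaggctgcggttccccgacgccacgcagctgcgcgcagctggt
B2M: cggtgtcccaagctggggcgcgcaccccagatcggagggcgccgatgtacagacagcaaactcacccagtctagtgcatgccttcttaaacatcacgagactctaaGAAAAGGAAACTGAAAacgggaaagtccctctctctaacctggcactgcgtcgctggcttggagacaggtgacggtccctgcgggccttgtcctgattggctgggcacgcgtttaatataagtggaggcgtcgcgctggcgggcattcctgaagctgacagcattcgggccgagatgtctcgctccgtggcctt
ISG15, IFITM3 and B2M each hold 2 matches, which overlap in ISG15 and B2M, and HERC5 holds 3 on the opposite strand. Among the 24 measured members with a match, other than OAS3 of the shared probe set, 16 were higher in exposed cells on average (median log2 difference 0.03). Of the 13 without a match, 5 were (median -0.02). The gamma-activated site, searched as TTCNNNGAA on both strands, was in 8 of 39 member windows (20.5%) and in 7.88% of all windows, and the 8 genes had a median log2 fold change of 0.06.

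IFITM3, a membrane protein that blocks the entry of viruses at endosomes, read lower in exposed cells. Its values were 8.34, 8.16, 8.02 and 8.28 in Aldrin-exposed cells, against 8.44, 8.37, 8.47 and 8.52 in Non-exposed cells. No exposed array reached the lowest Non-exposed array, though the nearest pair, 8.34 and 8.37, was close. The means were 8.20 ± 0.14 with Aldrin and 8.45 ± 0.06 without it (SD, n = 4 each), a log2 fold change of -0.25 (standard error 0.09, limma unadjusted p = 0.0181, adjusted p = 1). The exact permutation test, two-sided, gave p = 0.0286, which is the smallest that 4 against 4 arrays allow. Any probe set without overlap gives this value, so it restates the lack of overlap and adds no further support. IFITM3 has 1 probe set, of a kind (suffix x) whose probes can also match related transcripts. The chosen probe sets of IFITM1, IFITM2, OASL, IFIT3, IFI27, GBP1, HLA-B, HLA-C, HLA-G and HLA-DRA are of this kind too. IFITM1 and IFITM2 are close paralogues of IFITM3. Both paralogues had the lower mean in exposed cells too, with log2 fold changes of -0.11 and -0.15, and with overlap between the conditions. The second probe set of IFITM2 had 0.06. Background controls of the array with 20 G and C bases averaged 8.28 in exposed cells, against 8.42 in Non-exposed cells. Those with 3 averaged 3.61, against 3.58. How much of the IFITM3 difference lay in background was not settled.

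OASL, a relative of the oligoadenylate synthetases that lacks their enzyme activity, read 10.03, 9.96, 9.80 and 10.46 in Aldrin-exposed cells, against 10.10, 10.66, 10.34 and 10.28 in Non-exposed cells. The groups overlapped through exposed replicate 4. The log2 fold change was -0.28 (95% interval -0.64 to 0.08, p = 0.2 by the exact permutation test). DDX60, a helicase that assists RNA sensing, had the opposite sign, with 6.81, 6.72, 7.17 and 6.63 in exposed cells, against 6.22, 7.13, 6.15 and 6.77 in Non-exposed cells. Here the Non-exposed arrays divided into a low pair (replicates 1 and 3) and a higher pair, and all exposed arrays read above the low pair. The log2 fold change of DDX60 was 0.26, with an interval of -0.23 to 0.76. ISG15 read 12.75, 12.98, 12.80 and 12.98 in exposed cells, against 12.88, 12.96, 12.75 and 12.64 in Non-exposed cells. The groups overlapped nearly fully, and the interval of the log2 fold change was -0.15 to 0.29. RSAD2, viperin, which makes a chain-terminating nucleotide, averaged 4.89 ± 0.11 in exposed cells, against 4.96 ± 0.11 in Non-exposed cells (SD, n = 4 each).

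The other antiviral effectors showed no common direction. The IFIT proteins, which bind foreign RNA, had log2 fold changes of 0.12 (IFIT1), 0.09 (IFIT2), -0.10 (IFIT3) and 0.10 (IFIT5). MX1 and MX2, GTPases that trap viral nucleocapsids, had 0.20 and 0.08. For MX1 the exposed arrays read 8.68, 9.02, 8.80 and 9.15 and the Non-exposed arrays 8.83, 9.31, 8.39 and 8.31. The Non-exposed group thus spanned the exposed one on both sides. The oligoadenylate synthetases, which activate RNase L, read as follows. The representative probe set shared by OAS2 and OAS3 had 0.13 and another that they share -0.10, OAS1 had -0.09, the OAS3 probe set annotated to it alone had 0.08, and the 5 of OAS2 alone ran from -0.02 to 0.08. USP18, which removes ISG15 and restrains interferon signalling, had 0.08 at its shared probe set, and HERC5 and HERC6 had 0.08 and -0.02. IFI6, IFI27, IFI35, IFI44, IFI44L and ISG20 ran from -0.14 (IFI6) to 0.20 (IFI27) at their chosen probe sets. The second IFI27 probe set had -0.08. Signs were also mixed among the own probe sets of IFIT2, IFIT5, OAS1, IFI35, IFI44 and IFI44L, while those of MX2 were positive. In all, of the 24 probe sets of antiviral effectors 14 had a positive log2 fold change and 10 a negative one (median log2 fold change 0.05).

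IFIH1 (MDA5), a sensor of long double-stranded RNA, read 7.94, 8.30, 8.24 and 8.23 in Aldrin-exposed cells, against 7.88, 8.28, 7.63 and 8.01 in Non-exposed cells. Exposed replicates 2, 3 and 4 were close together at the upper end, and Non-exposed replicate 2 was as high. The log2 fold change was 0.23 (interval -0.09 to 0.55, p = 0.229 by the exact permutation test). The second IFIH1 probe set, which averaged only 3.92 over the 8 arrays, had 0.13. IRF1, a transcription factor downstream of interferon gamma, averaged 10.25 ± 0.10 in exposed cells, against 10.15 ± 0.08 in Non-exposed cells (SD, n = 4 each). The log2 fold change was 0.10. IRF9, the DNA-binding partner of the STATs, averaged 8.76 ± 0.12 with Aldrin and 8.79 ± 0.17 without it. IRF7, which amplifies type I interferon production, had a log2 fold change of -0.02.

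The probe sets of IRF1 disagreed, and this gene was singled out for that after its values were seen. Of 4 probe sets 3 had log2 fold changes of 0.10 to 0.13. The remaining probe set read 5.95, 6.29, 6.16 and 6.24 in Aldrin-exposed cells, against 6.42, 6.60, 6.55 and 6.47 in Non-exposed cells, without overlap. Its log2 fold change of -0.35 (unadjusted p = 0.00423, adjusted p = 1 from limma) was the lowest of all 145 member probe sets. IRF1 also had the widest span between its probe sets, 0.47 on the log2 scale. Of the 34 members with at least 2 probe sets of their own, all probe sets had the same sign in 13, 7 on the higher and 6 on the lower side of exposed cells, and signs were mixed in 21. Over the 145 probe sets 80 had the higher mean in exposed cells, 2 had an unadjusted p under 0.05 (1.38%, against 3.07% of all probe sets) and 3 had no overlap (2.07%, against 1.99%). The one beside IFITM3 and IRF1 was a probe set of HLA-G that averaged 4.60 ± 0.04 in exposed cells, against 4.47 ± 0.05 in Non-exposed cells (SD, n = 4 each), while the 6 of HLA-G ran from -0.17 to 0.12 and were 3 higher and 3 lower.

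The chemokines CXCL9, CXCL10 and CXCL11, which draw T cells through the receptor CXCR3, read low in both conditions. CXCL10 read 4.40, 4.44, 4.33 and 4.33 in Aldrin-exposed cells, against 4.29, 4.34, 4.38 and 4.38 in Non-exposed cells. CXCL11 averaged 4.05 ± 0.18 with Aldrin and 3.99 ± 0.07 without it (SD, n = 4 each), with exposed replicate 2 at 4.31 above the other arrays. The background control probe sets of the array, which match no human transcript, averaged from 3.59 to 11.4 as their G and C bases went from 3 to 25, and those with 15 averaged 5.41. Controls with 22 such bases averaged 9.68 in exposed cells, against 9.86 in Non-exposed cells, and those with 3 averaged 3.61, against 3.58. The cause of this difference was not tested, and a covariate for GC-dependent background was among the alternatives. The G and C content of member probes was not used here, so a low reading cannot be set against its own background. Below the control of 15 lay 6 members, namely the 3 chemokines, GBP1, RSAD2 and HLA-DRA. GBP2, a guanylate-binding protein that attacks the membranes of intracellular pathogens, read 7.04, 7.05, 6.40 and 6.83 in exposed cells, against 7.07, 6.87, 7.16 and 6.64 in Non-exposed cells. Exposed replicate 3 was the lowest array, and the log2 fold change was -0.10. Among the 5 genes the differences ran from -0.10 to 0.05.

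MHC class I heavy chains and B2M had log2 fold changes from -0.12 to 0.12, 3 of the 6 higher in exposed cells and 3 lower, a split that depended on small values. HLA-G turned to the higher side with a second quantile normalization, with array weights, with the covariate for GC-dependent background and when 1 of 3 arrays was left out, and B2M turned to the lower side without Non-exposed replicate 3. B2M, the light chain shared by all class I molecules, read 13.41, 13.40, 13.56 and 13.49 in Aldrin-exposed cells, against 13.31, 13.51, 13.26 and 13.58 in Non-exposed cells. The exposed arrays lay inside the Non-exposed range, and the interval of the log2 fold change was -0.16 to 0.26. All 8 probe sets of B2M had the higher mean in exposed cells, by 0.05 to 0.15, but they share arrays and a target, and 2 of them held identical values. Own probe sets had mixed signs for HLA-C (2 positive, 1 negative), HLA-E (1 and 5), HLA-F (6 and 4) and HLA-G (3 and 3). The 3 of HLA-B were all negative. HLA-B, a classical heavy chain, averaged 13.06 ± 0.11 in exposed cells, against 13.07 ± 0.13 in Non-exposed cells (SD, n = 4 each). HLA-C read 12.97, 12.60, 12.50 and 12.94 in exposed cells, against 13.05, 12.86, 13.00 and 12.58 in Non-exposed cells, a log2 fold change of -0.12 with overlap. The classical heavy chains are nearly identical over long stretches, the chosen probe sets of HLA-B, HLA-C and HLA-G are of the kind open to related transcripts, and 1 further probe set is annotated to HLA-B and HLA-C together. Its log2 fold change was 0.03. HLA-F, a non-classical chain, averaged 10.98 ± 0.17 with Aldrin and 10.86 ± 0.08 without it (log2 fold change 0.12, p = 0.286 by the exact permutation test). HLA-G, known from the placenta, had a log2 fold change of -0.03, and HLA-E, which presents leader peptides to NK receptors, had 0.02 with an interval of -0.66 to 0.70.

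Peptide loading and trimming genes had log2 fold changes from -0.06 to 0.18. ERAP2, an aminopeptidase that trims peptides in the endoplasmic reticulum, read 10.06, 9.93, 10.17 and 9.55 in Aldrin-exposed cells, against 9.55, 10.00, 9.56 and 9.88 in Non-exposed cells. Exposed replicate 4 lay with the low Non-exposed arrays. All 3 ERAP2 probe sets had the higher mean in exposed cells, by 0.13 to 0.18. ERAP1, its partner, averaged 10.56 ± 0.14 in exposed cells, against 10.46 ± 0.20 in Non-exposed cells (SD, n = 4 each). TAP1 and TAP2, the subunits of the peptide transporter, had log2 fold changes of -0.02 and -0.06. TAP2 read 11.39, 11.53, 11.60 and 11.52 in exposed cells, against 11.70, 11.60, 11.45 and 11.54 in Non-exposed cells. TAPBP, tapasin, which bridges the transporter to class I, averaged 12.53 ± 0.06 with Aldrin and 12.56 ± 0.09 without it, and its interval of -0.21 to 0.14 was the narrowest of these 5 genes. Signs were mixed among the 5 probe sets of TAPBP, which ran from -0.03 to 0.12 with 4 positive. They were also mixed for TAP2, from -0.15 to 0.20, and for ERAP1, from -0.16 to 0.13.

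Among the class II genes and MHC transactivators, CD74 and HLA-DMA differed most and in opposite directions. CD74, the invariant chain of class II molecules, read 8.31, 8.27, 8.21 and 8.28 in Aldrin-exposed cells, against 8.45, 8.75, 8.40 and 8.29 in Non-exposed cells. Non-exposed replicate 4 alone lay within the exposed range. The log2 fold change was -0.20 (limma unadjusted p = 0.0784, adjusted p = 1, and p = 0.0571 by the exact permutation test), and the 5 probe sets of CD74 all had negative log2 fold changes, from -0.24 to -0.07. HLA-DMA, which exchanges peptides on class II, read 8.65, 8.86, 8.54 and 8.79 in exposed cells, against 8.09, 8.35, 8.85 and 8.53 in Non-exposed cells. Non-exposed replicate 3 lay at the top of the exposed range. Its log2 fold change was 0.25, and 0.29 at the second probe set (p = 0.0571 by the exact permutation test). HLA-DRA, the alpha chain of HLA-DR, read 4.42, 4.84, 4.30 and 4.30 in exposed cells, against 4.39, 4.54, 4.46 and 4.31 in Non-exposed cells. A further HLA-DRA probe set, annotated also to HLA-DQA1, had a log2 fold change of -0.02. CIITA averaged 6.40 ± 0.18 with Aldrin and 6.45 ± 0.12 without it (SD, n = 4 each), and NLRC5, the transactivator of class I, had a log2 fold change of -0.04.

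**Figure D3:**
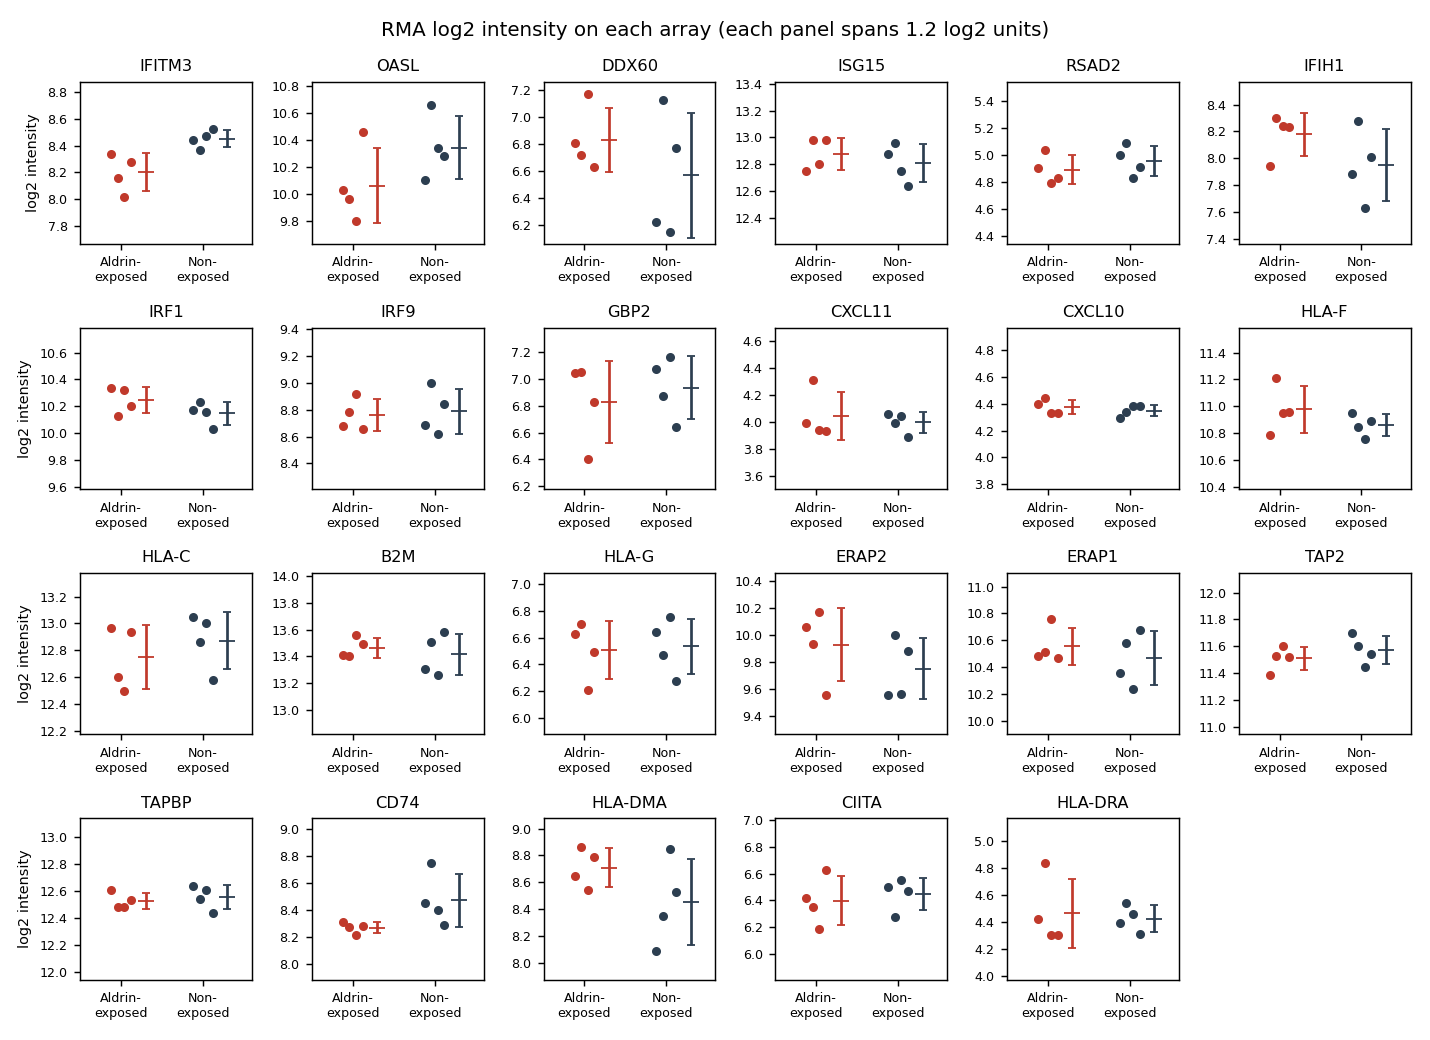
Log2 intensity (vertical axis) of the 23 members named by rule, on each of the 4 Aldrin-exposed (left) and 4 Non-exposed arrays (right) of a panel, with mean and SD beside the points. IFITM3 is the one panel in which the groups do not overlap, at 8.02 to 8.34 and 8.37 to 8.52.

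In the rest of the pathway 0 of 45 probe sets passed the threshold in limma. These stand for 46 of 48 genes in 4 lists of ligands, receptors with JAK kinases and suppressors, nucleic acid sensors, and other antigen processing genes. Of the 45, 24 had a positive log2 fold change and 21 a negative one (median 0.02). An unadjusted p under 0.05 was found for 1 (2.22%, against 3.07% of all probe sets) and no overlap for 1 (2.22%, against 1.99%). Among ligands IFNE, interferon epsilon of epithelia, read 5.45, 5.65, 5.46 and 5.44 in Aldrin-exposed cells, against 5.59, 5.82, 5.62 and 5.78 in Non-exposed cells. Exposed replicate 2 lay among the Non-exposed arrays, and the log2 fold change was -0.21 (limma unadjusted p = 0.0413, adjusted p = 1). IFNB1, interferon beta, averaged 4.44 ± 0.03 in exposed cells, against 4.41 ± 0.07 in Non-exposed cells (SD, n = 4 each). IFNGR1, the ligand-binding chain of the interferon gamma receptor, read 10.34, 10.24, 10.29 and 10.25 in exposed cells, against 9.99, 10.22, 9.96 and 10.24 in Non-exposed cells. The groups did not overlap, but exposed replicate 2 and Non-exposed replicate 4 are equal at the printed digits. Its log2 fold change was 0.18 (adjusted p = 1). IFNAR1, IFNAR2, JAK1 and TYK2 had 0.08, -0.02, 0.14 and 0.03. SOCS1, the feedback inhibitor of JAK kinases, averaged 7.64 ± 0.14 with Aldrin and 7.85 ± 0.12 without it, a log2 fold change of -0.21. STING1, which relays the sensing of cytosolic DNA, had 0.37 with an interval of -0.13 to 0.87, and HLA-DMB, the partner chain of HLA-DMA, had 0.36 with an interval of -0.10 to 0.83.

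For IFI35 and HLA-E, replicates of a condition differed from each other by far more than the means of the conditions did. IFI35, an interferon-induced leucine zipper protein, read 11.60, 11.56, 10.49 and 11.42 in Aldrin-exposed cells, against 11.42, 11.10, 11.67 and 10.62 in Non-exposed cells. HLA-E read 11.69, 12.44, 11.03 and 11.76 in exposed cells, against 12.13, 11.50, 12.03 and 11.18 in Non-exposed cells. This spread was not shared by all HLA-E probe sets: the SD over exposed arrays was 0.58 at the one shown and 0.18 to 0.20 at the 3 of lowest mean. In both genes, exposed replicate 3 and Non-exposed replicate 4 were the lowest arrays of their groups. The same arrays were lowest for IFI6, HERC6, NLRC5, GBP2 and HLA-G. They were highest in their groups for B2M and ERAP1. When each array was expressed as its deviation from its group mean, the first principal component over all probe sets held 58.3% of the remaining variance, with these 2 arrays at one end (loadings -0.57 and -0.51, the next -0.19). The deviations of 9 members correlated with it beyond 0.9 in size (18.4%), against 13.7% of all probe sets. These were HLA-G, HERC6, GBP2, IFI35, HLA-E, IFI6 and NLRC5 on the side where both arrays are low, and ERAP1 and B2M on the other. This is a description over 8 arrays that were normalized together, and its source was not tested. The median SD of members about their group means was 0.19, against 0.16 for all probe sets.

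Members that stand beside each other in function or in the genome did not always vary together from array to array. HERC5 and DDX60 deviated from their group means almost in parallel (r = 0.99 over 8 arrays, given as a description). Exposed replicate 3 and Non-exposed replicate 2 were high, and Non-exposed replicates 1 and 3 low. No rule fixed this pair beforehand, and over all pairs of members r ran from -0.94 (ERAP1 and IFI35) to 0.99 (GBP2 and HLA-G). HERC5 read 8.81, 8.76, 9.20 and 8.68 in Aldrin-exposed cells, against 8.55, 9.19, 8.41 and 8.94 in Non-exposed cells. HERC6, the paralogue next to HERC5 on chromosome 4, read 10.27, 10.62, 9.62 and 10.12 in exposed cells, against 10.51, 10.07, 10.48 and 9.65 in Non-exposed cells, and ran against it (r = -0.73). Both also moved with the first component over all probe sets, HERC6 with r = 0.98 and HERC5 with r = -0.83, as did DDX60 with r = -0.79, and the part of that component in these correlations was not tested. IFIT1 and IFIT2 gave 0.74 and IFIT1 and IFIT3 0.15, while TAP1 and TAP2 gave 0.06. Over all members, Non-exposed replicate 2 was above the gene's mean over the 8 arrays in 38 of 49 probe sets, and in 22 of the 24 of antiviral effectors. Exposed replicate 3 was above it in 15 and Non-exposed replicate 4 in 16 of 49. The same shares over all probe sets were not computed, so these counts are not shown to be particular to the members. The median deviation of an array ran from -0.07 to 0.04 in exposed and from -0.06 to 0.08 in Non-exposed cells.

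**Figure D4:**
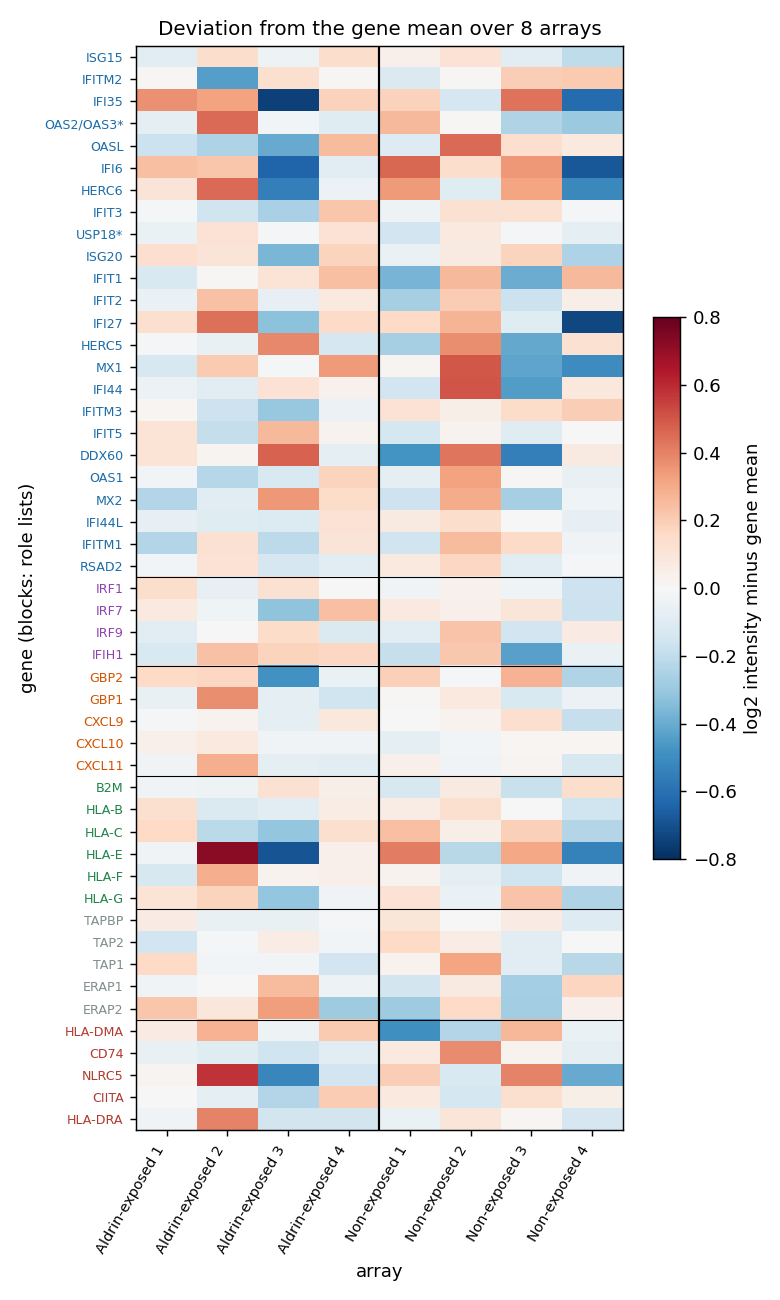
Deviation of each member (rows, in blocks by role list, stars for probe sets of several genes) from its own mean over the 8 arrays (columns, Aldrin-exposed left of the line and Non-exposed right of it), in log2 units. Exposed replicate 3 and Non-exposed replicate 4 are both low for HLA-E, IFI35, IFI6, HERC6 and NLRC5. Non-exposed replicate 2 is above the gene mean in 38 of 49 rows, a share not computed over all probe sets.

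The 6 epithelial markers (KRT7, KRT8, KRT18, KRT19, EPCAM and CDH1) averaged from 9.53 to 13.87 over the 8 arrays, and their mean level was 11.87 to 12 on exposed and 12.07 to 12.20 on Non-exposed arrays. All 6 log2 fold changes were negative, from -0.46 for CDH1 (limma unadjusted p = 0.0386) to -0.05 for KRT7, and none passed. The other CDH1 probe set had -0.67 without overlap (unadjusted p = 0.00427, adjusted p = 1). The part of this in the values of members was not tested. The 9 leukocyte markers, of cells rich in class II and interferon-induced transcripts, had a mean level of 6.50 to 6.65 on exposed and 6.53 to 6.68 on Non-exposed arrays. Their defining gene PTPRC read 4.76 over the 8 arrays, and the highest, CD68, a lysosomal protein, 11.87. Fibroblast and endothelial markers had mean levels of 6.00 to 6.11 and 6.51 to 6.77 on exposed arrays, against 5.96 to 6.18 and 6.54 to 6.87 on Non-exposed arrays. In RNA from a whole culture, fewer cells with a transcript and less of it per cell cannot be told apart. Pairs of arrays correlated between 0.983 and 0.997 over all probe sets, and none was a copy of another.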

How the data were processed

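Total RNA of DU145 cells was hybridised as biotinylated cRNA to 1-color Affymetrix arrays, 4 Aldrin-exposed and 4 Non-exposed. The authors deposited RMA values, log2 intensities after background correction, quantile normalization and probe summary. The RMA version and chip definition used are not given in the sources used here. Quantile normalization is meant to remove shifts common to a whole array. The medians of the arrays still differed, with an SD of 0.0526 on the log2 scale. The study's methods and the annotation used here name different Affymetrix array types. Of 49395 probe sets 102 controls were left out. Of the 49293 tested, 44988 had 1 gene symbol, 1832 several and 2473 none in the annotation used.

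Two-sided limma fits (version 3.58.1, R 4.3.3) with eBayes compared the groups. Adjustment was by Benjamini-Hochberg over the whole table at 0.05, and the exact permutation test over the 8 arrays was run for each gene. No test was run on the members as a set. The members and lists were chosen with earlier results of these data known. Members named in full were, in each of 6 role lists, the 3 of smallest p, those of highest and lowest mean and those without overlap, and in each other pathway list the gene of smallest p and those without overlap. Others are given by their values. The fit was tested on simulated data with known changes. Alternatives covered the test, variance model, array weights, replicate block, centring, a second quantile normalization, dim probe sets, each array left out, the mean of all probe sets per gene and probe sets of several genes. A covariate for GC-dependent background was added after the data were seen. Figures and counts were made in Python 3.11.15 with pandas 2.3.3 and matplotlib 3.10.9. The number of arrays limits the precision, and 0 value columns were unused.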

Additional observations from a re-analysis of the deposited data

Results flagged for a closer look

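In 7 of 108 groups of 4 arrays, over the members and the named pathway genes, 1 array stood apart from the other 3 by more than Dixon's 95% value for the gap over the range. Chance flags about 1 in 20 groups, or 5.4 of 108. All 7 were Aldrin-exposed arrays. Replicate 3 was low for IFI35, at 10.49 where the others read 11.42 to 11.60, and for ISG20, at 9.67 against 10.14 to 10.21, and high for ERAP1, at 10.76 against 10.47 to 10.51. Replicate 2 was high for the probe set shared by OAS2 and OAS3, at 11.47 where the others read 10.92 to 11, for CXCL11, at 4.31 against 3.93 to 3.99, and for IFNE, at 5.65 against 5.44 to 5.46. Replicate 4 was high for IFI44L, at 6.32 where the others read 6.10 to 6.14.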

How the results depend on the processing

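No member passed the adjusted threshold in any alternative. Over all probe sets the count past it was 1 in limma, and 0 with the t-test of unequal variances, with the replicate block, with dim probe sets left out and with the covariate for GC-dependent background, which was added after the data were seen. With 1 array left out it ran from 0 to 1. The median log2 fold change over members ran from -0.0404 (without Non-exposed 4) to 0.0417, members with the higher mean in exposed cells from 22 to 32, and members without overlap from 1 to 3. Without Aldrin-exposed 4, OASL and IFI44L joined IFITM3. CD74 joined it without Aldrin-exposed 1 or Non-exposed 4, and HLA-DMA without Non-exposed 3. Over all probe sets 3.25% to 6.33% then had no overlap.

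For the 28 genes named by rule, 444 of 465 values kept their sign and 18 genes kept it throughout. The sign turned with array weights for ISG15 (-0.0122), HLA-G (0.0288), CIITA (0.0426), HLA-DRA (-0.0348) and TAPBP (0.0006), with the GC covariate for HLA-G (0.0331), CIITA (0.0259) and HLA-DRA (-0.0061), with a second quantile normalization for HLA-G (0.0049), and with the mean of all probe sets for RSAD2 (0.0039) and TAPBP (0.0611). The cause was not tested. With 1 array left out it turned for B2M (-0.0016 to 0.1062), HLA-G (-0.113 to 0.072), CIITA (-0.1253 to 0.0214), HLA-DRA (-0.0838 to 0.0964), GBP2 (-0.2026 to 0.0391), CXCL11 (-0.0362 to 0.0904) and IRF9 (-0.0828 to 0.0417). IFITM3 ran from -0.2993 to -0.1936. The deviations of same-numbered arrays correlated with r of 0.31, -0.34, -0.72 and -0.08. The first component over all probe sets enters these values, so they cannot settle whether the numbers pair the samples. The replicate block left 0 members past the threshold. The number of arrays limits these comparisons, and which members read above their own background was not settled.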
